A study of Arabidopsis thaliana with 4 samples.

Results

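Of 9 class III peroxidase genes known for expression in roots or root hairs, 6 were measured by name, and transcripts of all 6 fell in Arabidopsis roots kept at low oxygen. The genes were chosen as a list of loci, with earlier results of these data known. Each was read from the probe set that the platform's probe table assigns to that gene alone. The measured genes were AT1G34510, AT1G30870, AT3G49960, AT5G17820, AT3G01190 and AT4G26010, among 13355 genes measured by name on the array. RHS18 (AT5G22410), RHS19 (AT5G67400) and AT1G05240 had no probe set assigned by name and were not analysed here. The 6 falls ran from 2.42-fold to 31.0-fold.

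Class III peroxidases are secreted haem enzymes of plants. In the cell wall they use hydrogen peroxide to join phenolic and protein components, which stiffens the wall, and they can also produce reactive oxygen species that loosen it. Root hairs are tubular outgrowths of epidermal cells. Their tip growth is known to depend on a balance between loosening and stiffening of the wall and on reactive oxygen species made by NADPH oxidases at the plasma membrane.

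Roots came from 3-week-old seedlings of the accession Col-0, with no transgene or mutation named in the labels, and were measured on 4 Affymetrix arrays, 2 per group. Each biological replicate was a pool of 5 seedlings from 1 dish. All seedlings had spent 24 hours in liquid medium with 3% sucrose and then 5 hours in foil-covered canisters, which for the low oxygen group received a 0.1% oxygen gas mix and were closed, and for the normal oxygen group had no seal. Flushing, sealing and low oxygen always went together, so their effects cannot be told apart.

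Values are log2 RMA expression values, so a difference of 1 is a 2-fold difference. Array medians lay between 6.33 and 6.36. Of the markers fixed for the labelled tissue, 1 of 12 root genes was measured by name. This was PYK10, a beta-glucosidase gene of root endoplasmic reticulum bodies, at 13.41 and 13.66 at normal oxygen and 12.84 and 12.90 at low oxygen (log2 change -0.67, limma adjusted p = 0.0049). Of 14 green shoot markers only RCA, which encodes Rubisco activase, was measured, at 7.11 and 6.79 at normal oxygen and 8.14 and 8.37 at low oxygen (log2 change 1.31, limma adjusted p = 5.9e-04). None of 6 root cap and meristem markers was measured by name. The array's 25S ribosomal RNA control rose by 5.94 on the log2 scale, and the change in the 5′ minus 3′ difference of the actin, GAPDH and ubiquitin controls was -0.24, 0.13 and -0.07. The part of these differences in the peroxidase results was not tested.

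The comparison of the groups asked which peroxidase transcripts differ in roots after 5 hours of low oxygen. All 6 measured genes passed limma's test, with Benjamini-Hochberg adjustment over all 22746 probe sets at 0.05. For comparison, 17.6% of all probe sets passed in the same direction and 33.4% in either direction. All 6 were also at least 2-fold lower, which held for 5.32% of all probe sets. The median log2 change of the 6 was -2.02, against -0.0018 over all probe sets. In every one of the 6 both low oxygen arrays lay below both normal oxygen arrays, a pattern in this direction shown by 33.1% of probe sets. Because this list and the gene lists below were chosen with earlier results known, each contrast with all probe sets is descriptive only. The arrays measured whole roots, in which fewer root hair cells and less transcript per cell cannot be told apart.

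AT1G34510 showed the widest gap between the groups. It read 11.75 and 11.79 at normal oxygen, and 7.27 and 6.35 at low oxygen. The normal oxygen arrays were nearly identical, and the low oxygen arrays were both far below them and differed from each other by 0.92. The log2 change was -4.96 (SE 0.27, 95% interval -5.60 to -4.31, limma adjusted p = 3.9e-05). Low oxygen replicate 2 stood close to the median of all probe sets on its array, where signal over background is more limited than at the normal oxygen level.

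AT1G30870 read 12.22 and 11.97 at normal oxygen and 8.95 and 8.62 at low oxygen. In both groups replicate 2 was somewhat lower than replicate 1, by 0.25 and 0.33, and the groups were far apart. The log2 change was -3.31 (SE 0.15, 95% interval -3.66 to -2.96, limma adjusted p = 1.9e-05), a 9.92-fold fall. Among all probe sets this was the 20th largest fall.

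AT3G49960 read 11.65 and 11.51 at normal oxygen and 9.32 and 8.59 at low oxygen. Its low oxygen arrays differed by 0.73, a spread second to that of AT1G34510 among the 6 genes. The log2 change was -2.63 (SE 0.22, 95% interval -3.16 to -2.09, limma adjusted p = 2.2e-04), a 6.17-fold fall and the 62nd largest of all probe sets.

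**Figure D1:**
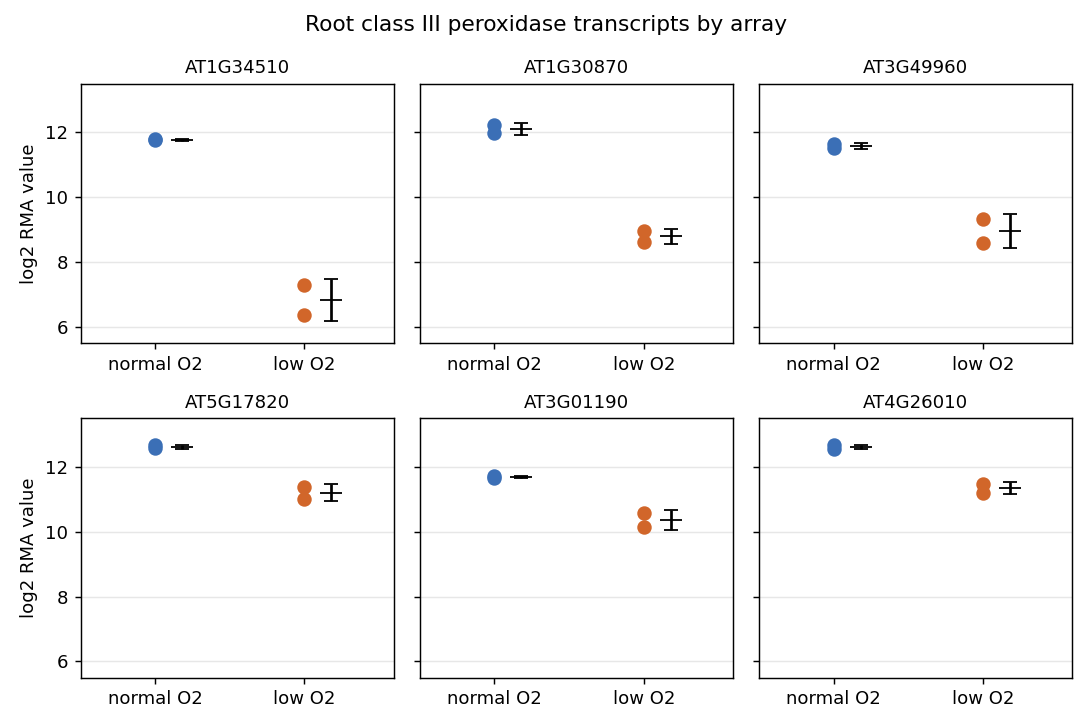
Log2 RMA values (vertical axis) of the 6 measured root peroxidase genes on the 2 normal oxygen arrays (blue points) and the 2 low oxygen arrays (orange points), with the group mean and SD in black beside them. In each gene the orange points lie below the blue points, from 6.35 at the lowest in AT1G34510 to 11.48 at the highest in AT4G26010.

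The remaining genes stayed high at low oxygen and fell by smaller amounts. AT5G17820 read 12.66 and 12.58 at normal oxygen and 11.39 and 11.02 at low oxygen. Both groups were tight relative to the gap between them, and the log2 change was -1.42 (SE 0.14, 95% interval -1.75 to -1.09, limma adjusted p = 3.9e-04), a 2.67-fold fall. AT3G01190 read 11.72 and 11.67 at normal oxygen and 10.14 and 10.57 at low oxygen. It was the only one of the 6 in which low oxygen replicate 2 was the higher of its group, by 0.44. Its log2 change was -1.34 (SE 0.15, 95% interval -1.71 to -0.98, limma adjusted p = 7.3e-04), a 2.54-fold fall.

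AT4G26010 showed the smallest change. It read 12.66 and 12.57 at normal oxygen and 11.48 and 11.21 at low oxygen, so its low oxygen arrays still lay above 11. The log2 change was -1.28 (SE 0.12, 95% interval -1.57 to -0.98, limma adjusted p = 3.5e-04), a 2.42-fold fall. AT4G26010, AT3G01190 and AT5G17820 held ranks 742, 644 and 567 among the falls of all probe sets.

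In each of the 6 genes the 2 low oxygen arrays lay further apart than the 2 normal oxygen arrays. All 6 genes share the same 4 arrays, so they do not measure the spread of a group independently. For each gene the fit used 1 estimate of the spread for both groups. At normal oxygen the SD was between 0.025 in AT1G34510 and 0.178 in AT1G30870. At low oxygen it was between 0.190 in AT4G26010 and 0.650 in AT1G34510. Low oxygen replicate 2 was the lower in 5 of the 6 genes. Without low oxygen replicate 1 the log2 change of AT1G34510 was -5.42, and without low oxygen replicate 2 it was -4.50. The corresponding values of AT3G49960 were -2.99 and -2.26. Each of the 6 genes stayed past the threshold without any single array.

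**Figure D2:**
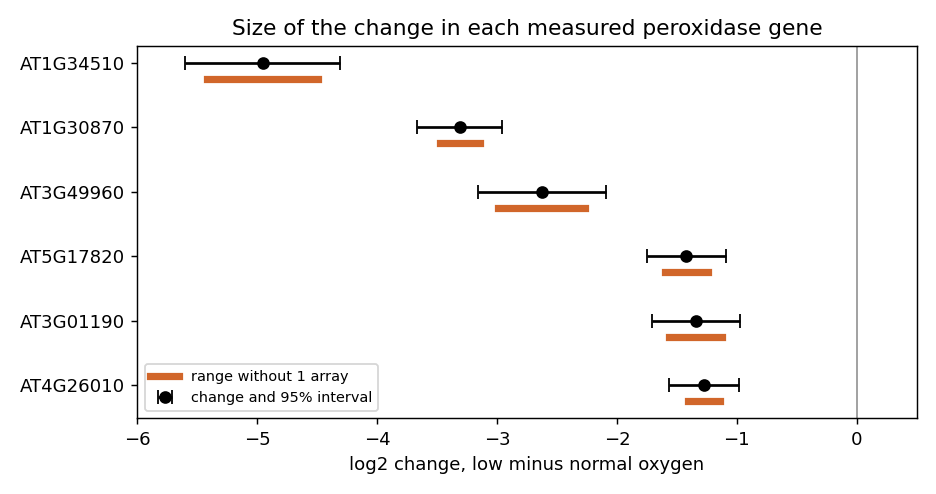
Log2 change at low minus normal oxygen (horizontal axis) of each measured root peroxidase gene, as the estimate and 95% interval (black) and as the range over fits that leave out 1 of the 4 arrays (orange). AT1G34510, AT1G30870 and AT3G49960 lie between -4.96 and -2.63, and AT5G17820, AT3G01190 and AT4G26010 between -1.42 and -1.28.

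The estimated size of the fall varied between the genes. All 15 pairs were compared by the change of one gene minus the change of the other, array by array. The fall of AT1G34510 exceeded that of AT1G30870 by 1.65 and that of AT4G26010 by 3.68 on the log2 scale. AT1G30870 fell more than AT4G26010 by 2.04, and AT3G49960 fell more than AT4G26010 by 1.35. In 13 pairs the differences on the low oxygen arrays did not overlap those on the normal oxygen arrays. Among single probe sets, 64.5% showed no overlap between the groups, counting both directions. No such share was computed for differences between 2 genes, so 64.5% is not a background for the 13 pairs. The 15 pairs share 6 genes, so they are not independent. In 11 pairs the 95% intervals of the 2 changes did not overlap. With 2 arrays per group the exact 2-sided permutation test cannot give a p below 0.3333 (0.3846 after Benjamini-Hochberg adjustment over the 15 pairs), so no pair could pass it.

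The 4 pairs with overlapping intervals were AT1G30870 with AT3G49960 and the 3 pairs among AT5G17820, AT3G01190 and AT4G26010. The changes of AT1G30870 and AT3G49960 differed by 0.68. Between AT4G26010 and AT5G17820 the changes differed by 0.14, between AT3G01190 and AT5G17820 by 0.08, and between AT4G26010 and AT3G01190 by 0.07. At this number of arrays those last differences were within the intervals of the single genes, which does not show that the genes responded alike.

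The wider peroxidase family held falls and rises. The family list held 73 genes, and 49 of the other 64 had a named probe set. Transcripts of 23 of the 49 fell, those of 7 rose and 19 missed the threshold, where 17.6% of all probe sets passed as lower and 15.8% as higher. With probe sets of every level counted, the share that rose was near that of all probe sets. The median log2 change of the 49 was -0.31, against -0.0018 over all probe sets, and 10 of the 49 fell at least 2-fold. Some of the 49, such as AT4G25980 (3.78 to 3.88), read near the floor, where a fall could hardly be seen. For 33 of the 49 the larger group mean was 6 or above. Of these 33, 21 fell, 5 rose and 7 missed the threshold in the test over all probe sets, with a median log2 change of -0.54. With the test limited to probe sets at that level, 21 of the 33 passed as lower and 6 as higher. In that limited test 3462 of 13068 probe sets passed as lower and 3206 as higher, and the median over the 13068 was -0.017. AT1G34510, AT1G30870 and AT3G49960 held the first 3 ranks of fall among the 55 measured family members, and AT5G17820, AT3G01190 and AT4G26010 held ranks 12, 13 and 14. The difference between the 6 genes and the rest of the family was not tested.

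The largest falls among the other family members came close to that of AT3G49960. AT4G11290 read 9.75 and 9.99 at normal oxygen and 7.54 and 6.95 at low oxygen (log2 change -2.62, limma adjusted p = 1.3e-04). AT2G18980 had a change of -2.61 (limma adjusted p = 4.4e-05), AT1G44970 of -2.60 (1.0e-05) and AT5G19890 of -2.51 (3.0e-05). Other members moved the opposite way. AT5G39580 read 6.91 and 7.12 at normal oxygen and 11.75 and 11.72 at low oxygen, a rise of 4.72 (limma adjusted p = 3.2e-06), and AT1G14550 rose by 3.43 (1.8e-05). AT4G33420 rose by 1.54 (2.1e-04) and AT5G64110 by 1.07 (0.0013).

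**Figure D3:**
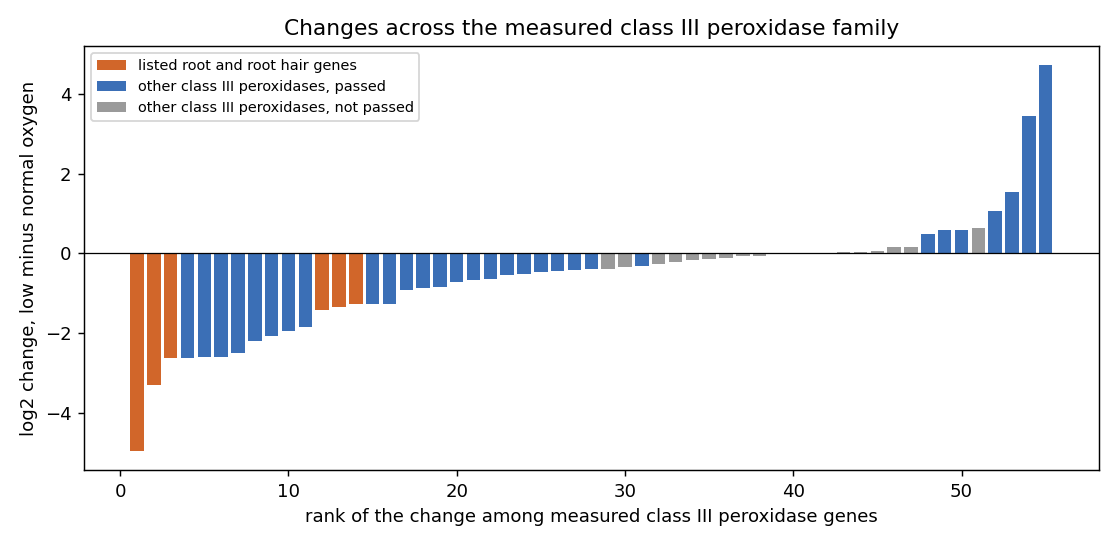
Log2 change at low minus normal oxygen (vertical axis) of the 55 measured class III peroxidase genes in order of change (horizontal axis), for the listed root and root hair genes (orange), other genes past the threshold (blue) and other genes not past it (grey). The 6 orange bars run from -4.96 to -1.28, and the other genes from -2.62 to 4.72.

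Position on the chromosome was described from the order of protein-coding genes in the RefSeq table. Of the 12 genes directly beside the 6 measured peroxidase genes, none is on the class III peroxidase list, and 7 were measured by name. None of the 7 passed limma's adjusted test, and none had an unadjusted p under 0.05, beside the 33.4% of all probe sets that passed. AT1G30880, next to AT1G30870, read 10.02 and 10.29 at normal oxygen and 10.13 and 10.16 at low oxygen (log2 change -0.0073, limma adjusted p = 0.9789). PEP, which lies beside AT4G26010 and encodes an RNA-binding protein, had a log2 change of 0.15 (limma adjusted p = 0.3467). The other 5 measured neighbours read below 5 on all arrays, where a fall could hardly be seen. AT4G25980, a listed class III peroxidase gene 3 genes away from AT4G26010, read between 3.78 and 3.88 on the 4 arrays (limma adjusted p = 0.9343).

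Genes of root hair walls and growth fell beside the peroxidases. The list held 40 such genes, 6 of them with a named probe set, and 5 of the 6 fell, where 17.6% of all probe sets passed as lower. The median log2 change over the 6 was -3.02, against -0.0018 over all probe sets. With the test limited to probe sets at a level of 6 or above, 5 passed as lower, where 3462 of 13068 probe sets did. As for the peroxidases, the contrast with all probe sets is descriptive only. The smallest of the 5 falls lost its call under 5 of 13 alternatives, with limma adjusted p-values of 0.0783 when the first normal oxygen array was dropped and of 0.0612 and 0.1068 when low oxygen arrays 1 and 2 were dropped in turn. XTH26, which encodes a xyloglucan-modifying enzyme, had a change of -4.37 (limma adjusted p = 7.0e-05), and GH9C1, which encodes an endoglucanase, of -3.69 (8.0e-06). The root hair expansin genes EXPA18 and EXPA7 had changes of -3.53 (1.2e-04) and -2.50 (5.1e-05). EXPA18 read 7.58 and 6.70 on the low oxygen arrays and XTH26 read 6.43 and 5.47, so replicate 2 was the lower there as in AT1G34510. Replicate 2 was the lower in 4 of the 5 genes that fell. The exception was EXPA7, at 7.35 and 7.37.

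Some measured genes known for root hairs missed the threshold, which does not show that their transcripts were unchanged. FER, which encodes a receptor kinase of cell growth, read 11.14 and 10.93 at normal oxygen and 10.84 and 10.75 at low oxygen (log2 change -0.24, limma adjusted p = 0.1579). Of 16 listed regulators of hair cell fate and hair growth only ATMYC1 and AT2G14760 were measured by name, and neither passed (log2 changes -0.13 and -0.01, limma adjusted p = 0.5850 and 0.9477). AT2G14760 read between 4.15 and 4.17 on all arrays, where a fall could hardly be seen, and ATMYC1 between 5.30 and 5.69.

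Genes of enzymes that make or remove reactive oxygen species were listed too, and few were measured by name. Of 10 listed NADPH oxidase genes, whose products release superoxide that is converted to hydrogen peroxide in the wall, 3 were measured by name. AT5G51060 was listed and had no named probe set. Of the 3, 2 fell and 1 rose, where 17.6% of all probe sets passed as lower and 15.8% as higher. AT4G25090 read 8.97 and 9.01 at normal oxygen and 7.40 and 6.85 at low oxygen (log2 change -1.87, limma adjusted p = 3.6e-04). AT1G19230 read 7.31 and 6.99 and then 5.87 and 6.23 (log2 change -1.10, limma adjusted p = 0.0022). AT4G11230 rose from 5.47 and 5.75 to 6.54 and 6.24 (log2 change 0.78, limma adjusted p = 0.0068). Of 16 listed enzymes that remove peroxide or superoxide, SAPX and TAPX, both chloroplast ascorbate peroxidase genes, were measured, with log2 changes of -0.27 and 0.21 (limma adjusted p = 0.1939 and 0.1504).

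Extensins are hydroxyproline-rich wall proteins that peroxidases can cross-link. Of 18 listed extensin genes, 10 had a named probe set. Of these, 6 fell and 4 missed the threshold, where 17.6% of all probe sets passed as lower. The median log2 change of the 10 was -0.83, against -0.0018 over all probe sets. With the test limited to probe sets at a level of 6 or above, 6 extensin genes passed as lower and 1 as higher. In that limited test 3462 of 13068 probe sets passed as lower and 3206 as higher. This contrast too is descriptive only. HRGP1 read 12.93 and 12.33 at normal oxygen and 11.19 and 11.03 at low oxygen (log2 change -1.52, limma adjusted p = 0.0013). AT3G54580, AT5G06630 and AT4G08410 had changes of -1.40, -1.21 and -1.21 (limma adjusted p = 0.0062, 0.0071 and 0.0078). Normal oxygen replicate 1 was the higher of its group in all 4, by 0.60 in HRGP1 and by 0.85 in AT3G54580, against gaps of at most 0.25 in the 6 peroxidase genes. Without low oxygen replicate 2 only 1 of the 6 calls, HRGP1, remained, and the adjusted p of AT3G54580, AT5G06630 and AT4G08410 was 0.0566, 0.0618 and 0.0668. Of the 6, 4 were read from probe sets of the kind that may also bind related transcripts, and extensin genes share repeated sequence, so these values are uncertain between copies. No peroxidase gene above was read from such a probe set.

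Monolignols are phenolic substrates that wall peroxidases can polymerise to lignin. Of 19 listed genes of their synthesis, 2 were measured by name. HCT, which encodes an acyltransferase of the pathway, read 10.93 and 10.63 at normal oxygen and 9.34 and 9.41 at low oxygen (log2 change -1.41, limma adjusted p = 2.8e-04). CCR2, which encodes a cinnamoyl-CoA reductase known from defence, rose from 6.46 and 6.37 to 8.71 and 8.52 (log2 change 2.20, limma adjusted p = 2.8e-05).

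**Figure D4:**
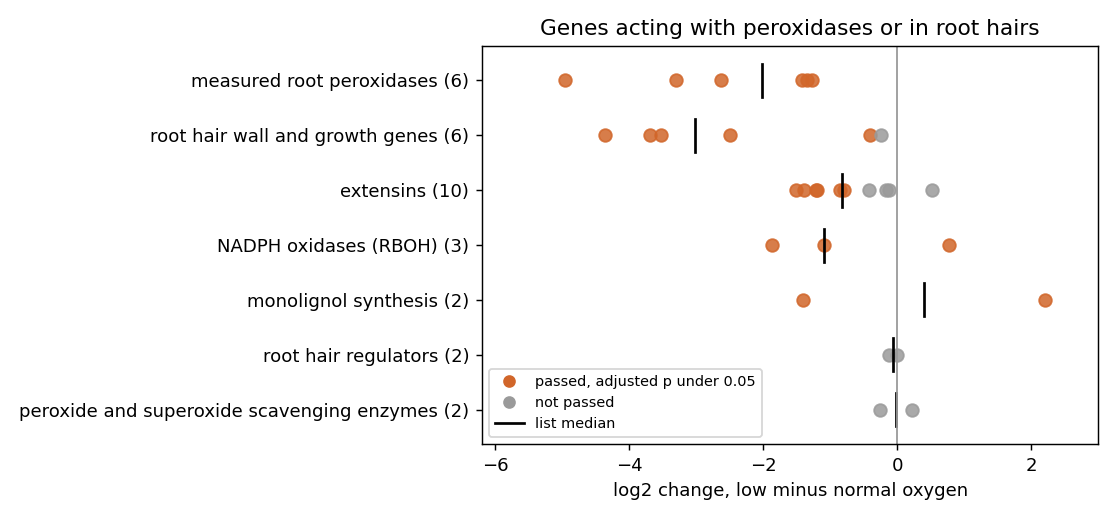
Log2 change at low minus normal oxygen (horizontal axis) of the measured root peroxidase genes and of 6 lists of genes that act with peroxidases or in root hairs, with the number measured in brackets. Points are genes, orange where past the threshold and grey where not, and black lines are list medians, such as -2.02 for the peroxidases and -3.02 for the root hair wall and growth genes.

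Genes with the most similar pattern were found by the root mean square difference over the 4 arrays between a gene's values, less their mean, and the mean of the 6 peroxidase profiles treated the same way. The 5 nearest of all other genes measured by name were AT1G23030, AT2G18980, UGT72E3, AT5G58900 and AT2G22930, with differences of 0.059, 0.062, 0.070, 0.075 and 0.078 on the log2 scale. Their log2 changes lay between -2.61 and -2.37. AT2G18980, itself on the class III peroxidase list, read 10.90 and 10.81 at normal oxygen and 8.45 and 8.04 at low oxygen. Among the 6 genes themselves AT3G49960 lay nearest to their mean profile, at 0.147, and AT1G34510 farthest, at 1.25. With 4 arrays in 2 groups this measure mostly ranks genes by the size of their change.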

How the data were processed

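The authors deposited log2 values from 2.95 to 13.99, and the submitters' processing notes name RMA and limma with no version. Biotin-labelled cRNA from 7 ug of total RNA was hybridised, per the labels' protocols. RMA equalises the arrays, so a change shared by all transcripts would not show. Of 22810 probe sets, 64 controls were left out. Genes were named through the platform's probe table and the RefSeq table of TAIR10.1: 13513 probe sets had 1 gene, 503 several and 8730 were not listed. The highest-mean probe set stood for a gene. Gene start positions were used to order protein-coding genes along each chromosome.

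Groups were compared with limma 3.58.1 in R 4.3.3 (lmFit, eBayes, default prior, 2-sided, no block), with 2 residual and 4.63 prior degrees of freedom, on 2 arrays per group. The test was tested on simulated data, which had equal spread in both groups and far fewer changed probe sets than passed here. The precision is limited by the number of arrays. Replicates were separate pools of seedlings per the labels. Same-numbered arrays did not deviate together (r = 0.024 across probe sets), so the numbers were not taken as pairs.

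Every measured member was named, and so were up to 4 passing genes per direction of each of 7 lists or, where none passed, the 2 highest, with EXPA7 and EXPA18 in any case and the 5 genes of nearest pattern. FER, AT1G23720, AT1G26250 and the genomic neighbours were named after values were seen. The members and lists were chosen with earlier results of these data known. Alternatives changed the prior, the normalization, the block, a minimum level, the threshold, how probe sets were combined and which arrays were used.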

Additional observations from a re-analysis of the deposited data

Results flagged for a closer look

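The array's 25S ribosomal RNA control took no part in the test of genes, and it was higher in both low oxygen samples than in either normal oxygen sample. It read 6.54 and 7.26 at normal oxygen and 12.94 and 12.74 at low oxygen, a log2 change of 5.94. The 5S ribosomal RNA control read 3.44 and 3.51 and then 3.51 and 3.45. Groups of 2 arrays are too small for a search for outlying samples.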

How the results depend on the processing

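The 6 peroxidase genes stayed lower and past the threshold under each of 13 alternatives, among them the replicate block, both normalizations, an adjusted p under 0.01 and each array left out. The highest adjusted p was 0.0042, in AT4G26010 and AT3G01190. Their median log2 change ran from -2.30 to -1.91 over the fits without 1 array. When a 2-fold change was also required, the other class III peroxidases gave 10 lower and 4 higher instead of 23 and 7, and the listed genes past the threshold numbered 26 instead of 46. With the replicate block these counts were 20, 6 and 42, and the extensin gene AT1G23720 lost its call (adjusted p = 0.0734). The extensin AT1G26250 passed as higher without normal oxygen replicate 1 (0.74, adjusted p = 0.0157) and with a minimum level of 6 (adjusted p = 0.0343). Of 74 list genes, 28 changed their call under at least 1 alternative. A stricter threshold or fewer arrays lowers counts by construction. Values near the floor, such as AT2G14760, can hardly show a fall.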
